A study of Homo sapiens with 15 samples.

Results

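The genes described here are 44 genes of DNA replication and S phase, taken as a named list of symbols out of 60664 gene IDs counted in each library. The list was drawn up by function, with earlier results of these data known. All 44 matched an ID, and all 44 passed the filter on low counts. RNA was sequenced from 15 libraries of T47D, an established line of luminal breast cancer whose growth needs the oestrogen receptor, in 5 groups of 3. PAR vehicle is the parental line (PAR01, sensitive to 4-hydroxytamoxifen) given 0.05% DMSO. The other 4 groups are the line TR01, resistant to 4-hydroxytamoxifen (4-OHT, the active form of the anti-oestrogen tamoxifen). TR vehicle received 0.05% DMSO, TR 4-OHT 1 µM 4-OHT, TR erdafitinib 5 µM erdafitinib (an inhibitor of the kinases of the fibroblast growth factor receptors), and TR combination both drugs at these doses. Cells of all groups attached for 24 h in their own growth medium, spent 48 h in medium with 2% charcoal-stripped serum and no added drug, and were then treated for 120 h. Insulin, a growth factor for these cells, was in the growth and the starvation medium of both lines at 8 µg/ml. Before seeding, PAR01 was grown in 5% serum without 4-OHT and TR01 in 2% charcoal-stripped serum with 1 µM 4-OHT, so that resistance and growth history cannot be told apart in any comparison of TR with PAR. There is 1 parental and 1 resistant line, and no PAR library received a drug. The labels name the 3 libraries of each group as biological replicates without saying how cultures were kept apart, so p-values reflect only how these libraries varied, and that variation may be partly technical.

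Replication starts with licensing in G1, when the origin recognition complex, CDC6 and CDT1 load rings of MCM2 to MCM7 onto DNA. In S phase the kinases CDC7 and CDK2 turn each loaded ring into an active helicase with CDC45 and the GINS complex, after which primase and the polymerases copy both strands. Most genes of this machinery are transcribed in late G1 and S phase under E2F factors, which the retinoblastoma protein holds in check. In oestrogen-dependent breast cancer cells oestrogen drives this step and anti-oestrogens oppose it, so these transcripts are widely read as a sign of cycling cells. In bulk RNA a larger share of cells in S phase and more RNA per cell cannot be told apart, and that holds for every result below.

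To show what the members share outside their expression, the starts of 40 of the 44 genes were taken from RefSeq (build GRCh38.p14; GINS4, MCM5, MCM4 and RPA2 had no entry and are named only). E2F motifs were searched as TTTCCCGC, TTTGGCGC, TTTCGCGC and TTTGCCGC on both strands, from 250 bases before to 50 bases after the first listed start. Other forms of the motif were not searched, so the shares below count only these words. At least 1 match was present in 21 of 40 members (52.5%), in 594 of 11389 promoters of tested genes (5.22%) and in 908 of 27305 promoters in all (3.33%). The motif CCAAT, the binding sequence of NF-Y, was present in 57.5% of members and 37.2% of tested genes. The GC box GGGCGG was present in 70% and 68.8%. The sequences TTTGAA and TTCGAA, of the kind called CHR in promoters of mitotic genes, were present in 5% and 11.4%. Of the members called in resistant against parental cells, as defined below, 13 of 25 with an entry had an E2F match and 20 of 25 a CCAAT match, and of those not called 8 of 15 and 3 of 15. The E2F letters thus stood at about the same share in both, and the CCAAT letters at unequal shares. Not called does not mean unchanged, since the estimates of these 15 ran from -0.90 (CDT1) to 1.29 (POLD1). The split rests on calls from these same data, and the difference in shares was not tested. A match is a description of these letters, and the RefSeq start lay within 50 bases of the gene start used for counting in 24 of the 40.

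The 120 bases before the start are given 5′ to 3′ on the gene's strand for 5 members, with E2F matches in capitals. They were picked to show a helicase subunit with overlapping matches on both strands (MCM6, chr2:135876444-135876563, minus strand), a nucleotide enzyme with a single match (TYMS, chr18:657533-657652, plus strand), a licensing gene with a match that did not rise (CDT1, chr16:88803669-88803788, plus strand), the member with the largest rise and no match in its window (MCM10, chr10:13161438-13161557, plus strand), and a licensing gene whose match begins 8 bases after the start, outside the stretch shown (CDC6, chr17:40287759-40287878, plus strand).
MCM6: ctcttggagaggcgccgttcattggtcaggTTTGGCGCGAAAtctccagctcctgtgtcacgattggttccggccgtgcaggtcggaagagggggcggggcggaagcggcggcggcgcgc
TYMS: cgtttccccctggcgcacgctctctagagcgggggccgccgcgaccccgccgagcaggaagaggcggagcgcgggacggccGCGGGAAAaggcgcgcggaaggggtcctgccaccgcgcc
CDT1: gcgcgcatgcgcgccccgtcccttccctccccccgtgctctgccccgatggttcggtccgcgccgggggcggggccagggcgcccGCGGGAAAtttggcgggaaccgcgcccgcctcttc
MCM10: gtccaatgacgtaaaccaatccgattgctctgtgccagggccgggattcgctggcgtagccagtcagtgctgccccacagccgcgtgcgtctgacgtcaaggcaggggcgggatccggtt
CDC6: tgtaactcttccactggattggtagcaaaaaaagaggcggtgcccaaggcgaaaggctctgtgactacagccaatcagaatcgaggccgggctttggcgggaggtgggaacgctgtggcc
In MCM6 the capitals hold a forward and a reverse match that share 4 letters, and the window of MCM6 held 4 matches in all. The stretches of CDC6 and CDT1 also hold tttggcgg, which differs from the searched TTTGGCGC in its last letter. It was not searched and stands in lower case.

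Totals ran from 6946684 counts (PAR vehicle 2) to 28717380, with a median of 22304029. CPM are counts scaled to library size, on totals corrected by the trimmed mean of M values. On totals without that correction, 3 counts equalled 0.104 to 0.432 CPM. All 10 luminal markers were detected, with sums of 2855 to 4709 CPM. Of 8 fibroblast markers 6 had 0 counts in PAR vehicle, and in the TR groups 2 or 3 did, COL1A2 among them throughout. Their sum, mostly COL1A1, was 11.9 to 28.3 CPM in PAR vehicle and 13.6 to 38.7 CPM in TR libraries. Markers of immune cells summed to at most 2.56 CPM and those of endothelium to at most 0.155 CPM. Of the markers abundant enough to test, COL3A1 and THY1 (fibroblasts) and ITGAM (myeloid cells) were called higher in TR vehicle than in PAR vehicle, at 1.24 to 2.56, 0.258 to 1.06 and 0.567 to 1.13 CPM against 0, at most 0.0727 and 0 CPM. With erdafitinib COL3A1 was called lower over 6 TR libraries with the drug against 6 without, at 0.300 to 0.721 CPM against 1.24 to 2.99 CPM (edgeR adjusted p = 0.00502). The part of such cells in the results below was not tested. Within groups, libraries differed along an axis that held 46.7% of the within-group variance and followed the GC content of genes (Spearman 0.671 across genes, which are not independent). PAR vehicle 2 (-0.50), TR vehicle 1 (-0.37) and TR 4-OHT 2 (-0.33) were lowest on it, and PAR vehicle 3 (0.46) was highest. GC-rich members varied most: standard errors in resistant against parental cells were 0.256 to 0.969 for the 9 members with a GC content of 56% or more and 0.130 to 0.467 for the other 35. Genes of the mitochondrial genome held 14.5% (PAR vehicle 3) to 25.7% (PAR vehicle 1) of the counts.

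The first comparison, TR vehicle against PAR vehicle, asks how the resistant line differed from its parent with no drug present. Of the 44 genes, 28 rose and 0 fell, at an adjusted p under 0.05 in edgeR's quasi-likelihood test over all 16210 genes tested. In the same test 19.9% of all genes were called higher and 16% lower. The log2 fold change was above 0 for 38 of 44 members and for 53.2% of all genes, with a median of 1.09 against 0.07 over all genes tested. The groups did not overlap for 25 of 44 members, against 41% of all genes. Summed over the 44 genes, the level was 854 to 973 CPM in PAR vehicle and 1722 to 2021 CPM in TR vehicle. Each of the 12 TR libraries, whatever its treatment, held 29 to 37 of the 44 genes above their level in every PAR library. This count was made for the members only, so there is no share over all genes to read it against.

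**Figure D1:**
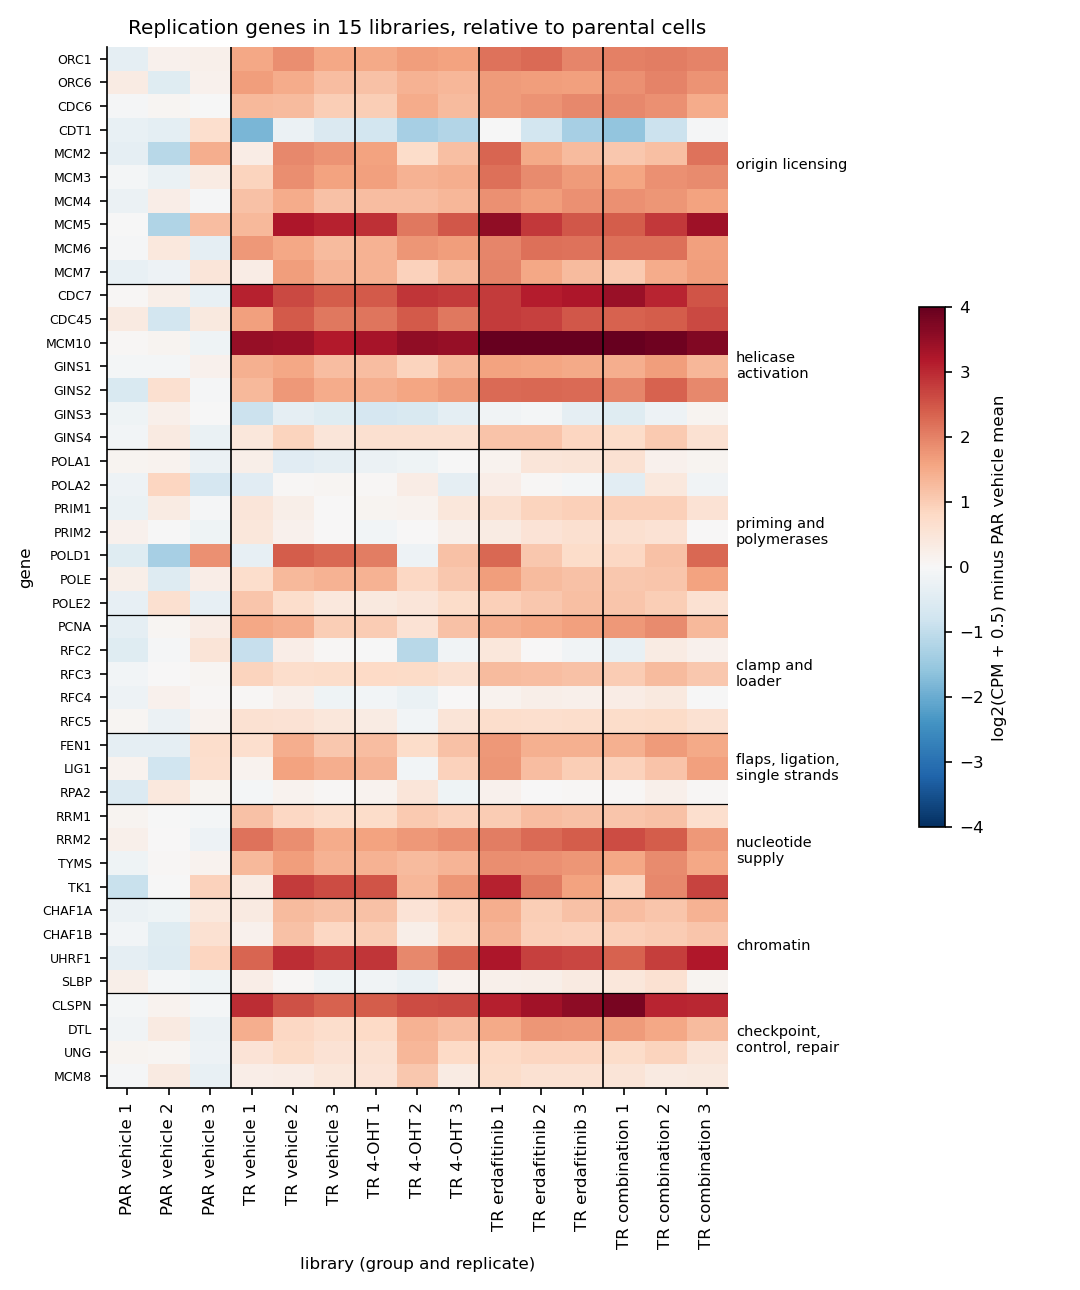
Level of each of the 44 genes (vertical axis, ordered by role) in each of the 15 libraries (horizontal axis), as log2(CPM + 0.5) minus the mean of the 3 PAR vehicle libraries, on a colour scale that ends at 4 in both directions. Apart from CDT1 and GINS3, licensing, helicase and nucleotide genes are red in all 12 TR libraries, palely in a few, most of the priming and polymerase genes and RFC4, RPA2 and SLBP are near white, and CDT1, MCM2, MCM5, POLD1 and TK1 vary most between libraries of the same group.

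Of the licensing genes 8 of 10 rose, with a median log2 fold change of 1.39. MCM4, a subunit of the MCM ring, stood at 61.1, 87.3 and 70.5 CPM in the PAR vehicle libraries and at 165, 204 and 163 CPM in TR vehicle, and rose by 1.28 (SE 0.15, edgeR adjusted p = 1.21e-05). All 3 resistant libraries were well above the highest parental library. ORC1, the largest subunit of the origin recognition complex, stood at 1.26, 2.06 and 2.11 CPM and at 6.08, 7.70 and 6.08 CPM, and rose by 1.87 (SE 0.25, edgeR adjusted p = 4.22e-05). The groups did not overlap, although the level was low in both. CDC6, the loader that works with the complex, stood at 14.7, 16.2 and 15.1 CPM in PAR vehicle and at 38.4, 37.5 and 30.7 CPM in TR vehicle, a rise of 1.21 (SE 0.17, edgeR adjusted p = 8.33e-05). Of the other licensing genes, MCM3, MCM5, MCM6, MCM7 and ORC6 rose by 1.17 to 2.46.

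CDT1, which brings the MCM ring to the origin and is destroyed once S phase begins, did not rise. It stood at 5.79, 5.40 and 11.6 CPM in PAR vehicle and at 1.65, 6.02 and 4.68 CPM in TR vehicle. The groups overlapped, and the log2 fold change of -0.90 had a 95% interval of -2.05 to 0.25. MCM2, also a ring subunit, was at 5.11, 2.86 and 19.4 CPM and at 8.40, 27.1 and 24.7 CPM. Its estimate of 1.09 resembled that of its partners, but with an interval of -0.20 to 2.37 it was not called. Both genes are GC-rich, and in both the PAR vehicle 3 library was the highest and TR vehicle 1 the lowest of its group. Both were called with a correction for GC content and length, and with the within-group axis as a covariate. Their main estimates had opposite signs.

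Helicase activation, with 6 of 7 called and a median of 1.48, held MCM10 and CDC7, the 2 largest estimates of the 44. MCM10, which is needed to open the assembled helicase (gene at chr10:13161558-13211110), stood at 3.86, 3.97 and 3.24 CPM in PAR vehicle and at 46.4, 43.9 and 36.9 CPM in TR vehicle. That is an 11.6-fold rise (log2 3.54, SE 0.21, edgeR adjusted p = 1.74e-08), the largest of the 44, and the lowest resistant library was still several times the highest parental library. CDC7, the kinase that fires licensed origins, stood at 2.68, 3.17 and 2.04 CPM and at 25.8, 18.7 and 16 CPM, and rose by 2.97 (SE 0.30, edgeR adjusted p = 2.98e-06). CDC45, the helicase cofactor, rose by 2.12. The GINS complex, in which 4 proteins stand in equal number, was uneven at the RNA level: GINS1 rose by 1.42, GINS2 by 1.48 and GINS4 by 0.62, whereas GINS3 had an estimate of -0.62. GINS3 stood at 4.36, 5.71 and 4.84 CPM in PAR vehicle and at 2.47, 3.78 and 3.35 CPM in TR vehicle, so that the groups did not overlap, but it was not called (edgeR adjusted p = 0.0853).

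Priming and polymerase genes had the fewest calls for their number among roles of 5 or more genes, with 1 of 7 called and a median of 0.24. POLE, the catalytic subunit of the leading-strand polymerase, stood at 32.3, 19.2 and 33.3 CPM in PAR vehicle and at 44.7, 68.3 and 73.1 CPM in TR vehicle, and rose by 1.13 (SE 0.26, edgeR adjusted p = 0.00338). Its partner POLE2 stood at 3.86, 8.10 and 3.89 CPM and at 11.3, 8.45 and 6.83 CPM, and the overlapping groups gave 0.78 (95% interval 0.13 to 1.43, edgeR adjusted p = 0.0598). The polymerase alpha and primase complex makes the primers on both strands. None of its 4 genes was called: POLA1 had an estimate of -0.17 (interval -0.60 to 0.26), POLA2 -0.19 (-1.19 to 0.81), PRIM1 0.24 (-0.18 to 0.65) and PRIM2 0.23 (-0.19 to 0.65). POLD1, the catalytic subunit of the lagging-strand polymerase, stood at 0.671, 0.159 and 5.34 CPM and at 0.825, 8.34 and 7.55 CPM, and its estimate of 1.29 had the widest interval of all members (-0.79 to 3.37).

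Among the clamp and its loader, 3 of 5 genes rose. PCNA, the sliding clamp of the polymerases, stood at 25.4, 34.8 and 40.4 CPM in PAR vehicle and at 97.4, 90.4 and 65.3 CPM in TR vehicle, and rose by 1.33 (SE 0.22, edgeR adjusted p = 0.000351). RFC3, a subunit of the clamp loader, stood at 21.5, 23.0 and 24.4 CPM and at 43.1, 37.9 and 38.1 CPM, and rose by 0.79 (SE 0.13, edgeR adjusted p = 0.000311). Libraries of the same group lay close together for RFC3, and the groups were well apart. RFC5 rose by 0.55, while its fellow subunits RFC2 (-0.20, interval -0.98 to 0.59) and RFC4 (0.03, interval -0.29 to 0.35) were not called.

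Okazaki fragments are finished by the flap nuclease FEN1 and the ligase LIG1. FEN1 stood at 15.0, 14.9 and 31.7 CPM in PAR vehicle and at 31.0, 54.0 and 41.6 CPM in TR vehicle, and rose by 1.02 (SE 0.28, edgeR adjusted p = 0.0112), with 1 library of PAR above the lowest of TR. LIG1 stood at 12.3, 6.19 and 18.1 CPM and at 12.4, 34.8 and 31.9 CPM. The groups overlapped through TR vehicle 1, and LIG1 was not called (1.08, interval 0.11 to 2.06, edgeR adjusted p = 0.0794). RPA2, a subunit of the complex that coats single strands, had an estimate of -0.02 (interval -0.51 to 0.47).

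All 4 genes of nucleotide supply rose. RRM2, the S phase subunit of ribonucleotide reductase, stood at 36.2, 32.2 and 27.2 CPM in PAR vehicle and at 144, 116 and 88.9 CPM in TR vehicle, and rose by 1.87 (SE 0.23, edgeR adjusted p = 2.32e-05). TYMS, thymidylate synthase, stood at 8.22, 9.52 and 10.2 CPM and at 23.4, 30.5 and 24.9 CPM, and rose by 1.49 (SE 0.17, edgeR adjusted p = 9.54e-06). For both enzymes every resistant library was above every parental one. The large reductase subunit RRM1 rose by 0.91. TK1, thymidine kinase, rose by 2.12, on overlapping groups of 2.85 to 11.3 and 7.42 to 43.2 CPM.

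Of 4 genes that act on chromatin behind the fork, 2 rose. UHRF1, which guides maintenance of DNA methylation on new strands, stood at 2.68, 2.38 and 7.02 CPM in PAR vehicle and at 20.2, 31.4 and 27.3 CPM in TR vehicle, a rise of 2.63 (SE 0.40, edgeR adjusted p = 0.00015). CHAF1A, the large subunit of the histone chaperone CAF-1, stood at 9.64, 10.2 and 15.6 CPM and at 14.8, 28.6 and 26.7 CPM, and rose by 0.98 (SE 0.27, edgeR adjusted p = 0.0112). Its partner CHAF1B had a similar estimate of 0.71 but was not called (interval 0.06 to 1.36). SLBP, which binds the stem loop of histone mRNA and is known to be set mainly at the protein level, stood at 42.3, 34.0 and 31.5 CPM and at 43.1, 36.5 and 31.6 CPM. Its groups overlapped fully, with an estimate of 0.05 (interval -0.34 to 0.44).

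Among genes of the checkpoint, of licensing control and of repair, 3 of 4 rose. CLSPN encodes claspin, which moves with the fork and passes its stress signal to the kinase CHK1. It stood at 2.93, 3.49 and 2.87 CPM in PAR vehicle and at 27.2, 20.4 and 17.9 CPM in TR vehicle, and rose by 2.83 (SE 0.26, edgeR adjusted p = 1.30e-06). The lowest resistant library was again several times the highest parental one. DTL, the adaptor that marks CDT1 for destruction at PCNA, stood at 21.4, 31.0 and 20.3 CPM and at 65.6, 42.9 and 38.9 CPM, and rose by 1.03 (SE 0.23, edgeR adjusted p = 0.00341). UNG, which removes uracil from DNA, rose by 0.64, and MCM8, a helicase of recombination, had an estimate of 0.32 (interval -0.12 to 0.76).

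**Figure D2:**
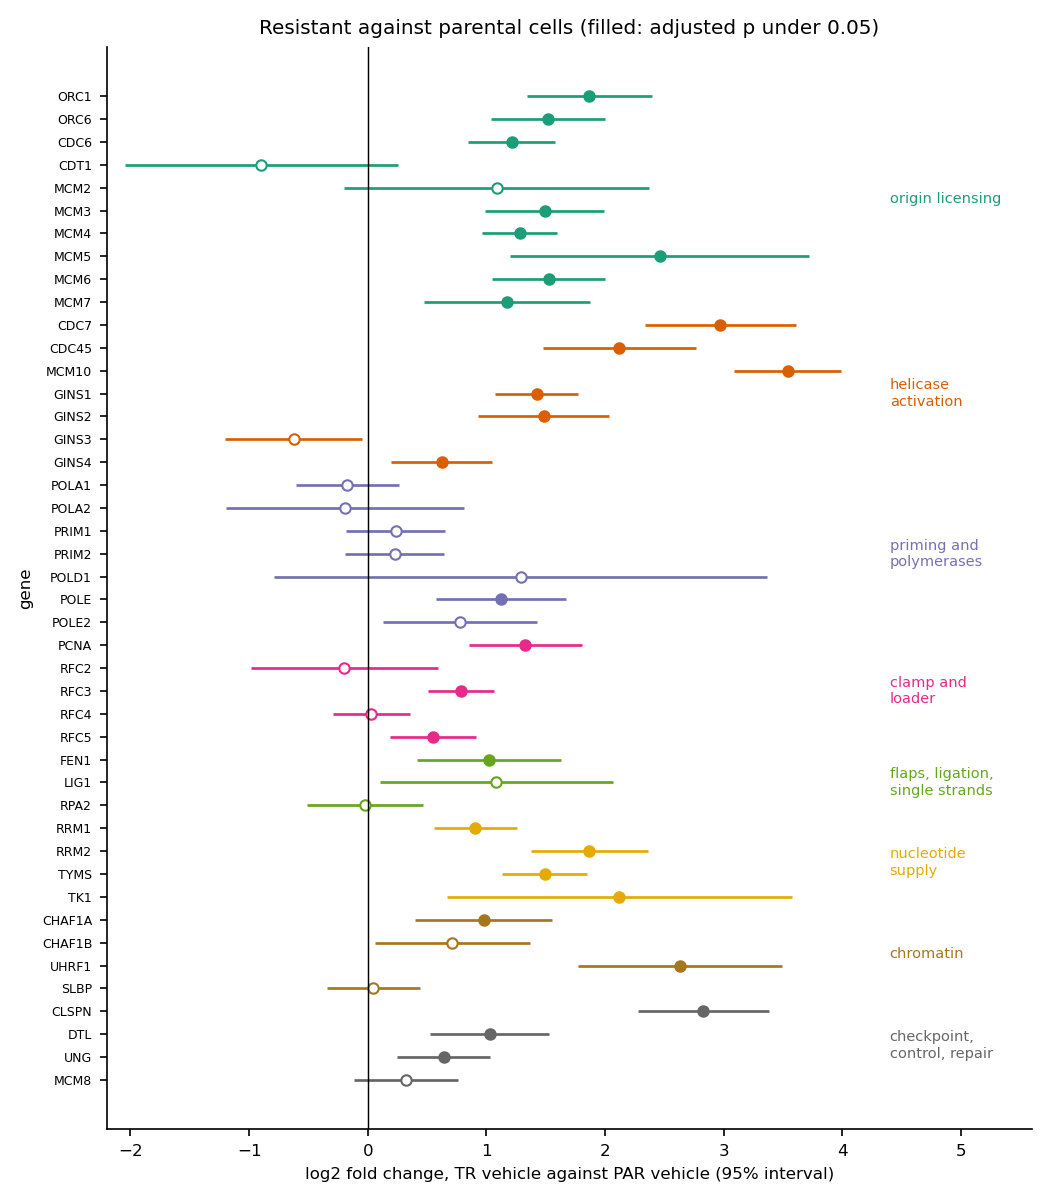
Log2 fold change of each of the 44 genes in TR vehicle against PAR vehicle (horizontal axis; points, with bars for the 95% interval; filled where the edgeR adjusted p is under 0.05), coloured by role. Filled points run from 0.55 for RFC5 to 3.54 for MCM10 with none below 0, and the longest bars belong to GC-rich genes such as POLD1, TK1, MCM2 and MCM5.

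Leaving out TR vehicle 2 left 21 of 28 calls, and the lost genes were CHAF1A, FEN1, GINS4, MCM7, RFC5, TK1 and UNG (FEN1 0.81, adjusted p = 0.0581; CHAF1A 0.81, adjusted p = 0.0526; both by edgeR). A fit on only the 6 libraries compared lost these 7 genes as well. Of all genes, 30% were called in either direction without TR vehicle 2 and 21.9% in this fit, against 35.9% in the main fit. Counts are less certain for POLA2, MCM8 and PRIM1, which share 36.1%, 33.3% and 17.6% of their exon bases with other genes on the same strand, and for 9 members with annotated pseudogene copies (ORC1, PCNA, RFC3, RFC5, FEN1, RPA2, RRM2, TYMS and UNG).

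On the scale of RPKM (counts per kilobase of exon, scaled to library size), the order of the 44 genes also differed between the lines. In PAR vehicle the highest means were RFC4 (25.1), PCNA (23.9) and SLBP (19.1), and neighbours in the order overlapped in 42 of 43 pairs. In TR vehicle PCNA led with 60.1 and no overlap with the next, followed by MCM3 (33.7), RRM1 (29.9), RFC4 (25.7) and MCM4 (25.4), of which each overlapped its neighbour. At the bottom of PAR vehicle were CLSPN (0.323), POLA2 (0.384), POLD1 (0.417), ORC1 (0.580) and MCM10 (0.676). In TR vehicle POLA2 (0.315) and GINS3 (0.626) were lowest. PCNA was also first in TR 4-OHT (45.5, overlapping MCM3), TR erdafitinib (69.4) and TR combination (75.1).

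The second comparison, TR 4-OHT against TR vehicle, asks whether the resistant cells responded to the drug that they resist. None of the 44 genes was called by edgeR, 0 had an unadjusted p under 0.05, and DESeq2 also called 0; of all genes tested, 0% were called by edgeR and 0.783% had an unadjusted p under 0.05. The log2 fold change was above 0 for 12 of 44 members and 41.3% of all genes, with a median of -0.05 in both. That count of members ran from 11 (without TR vehicle 3) to 25 (without TR vehicle 2) when single libraries were left out. No member's groups failed to overlap, against 3.65% of all genes. The summed level was 1698 to 1813 CPM in TR 4-OHT and lay within or just under the 1722 to 2021 CPM of TR vehicle. The smallest p among the members was that of PCNA, at 67.6, 49.1 and 74.8 CPM against 97.4, 90.4 and 65.3 CPM in TR vehicle (log2 -0.40, 95% interval -0.87 to 0.07). MCM10 stood at 40.3, 48.7 and 46.6 CPM in TR 4-OHT, CLSPN at 18.9, 21.4 and 22.0 CPM, and MCM4 at 171, 171 and 180 CPM, all overlapping TR vehicle. Against PAR vehicle, a group that the first comparison also used, TR 4-OHT had 28 members higher and 0 lower (19.2% and 16.2% of all genes), with a median of 0.94.

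The third question is what erdafitinib did in resistant cells, where most estimates for the replication genes were small and above 0. With erdafitinib alone, 43 of 44 genes had a log2 fold change above 0 relative to TR vehicle, as did 45.5% of all genes, and the median was 0.31 against -0.03 over all genes tested. The count of members fell to 35 without TR vehicle 1 and to 36 without TR erdafitinib 1. With erdafitinib added to 4-OHT, 40 of 44 were above 0 relative to TR 4-OHT, as were 51% of all genes, with a median of 0.39 against 0.01. Here 36 to 41 members were above 0 when single libraries were left out. No single member was called by edgeR in either comparison, while 0.0925% and 0.642% of all genes were called. At an unadjusted p under 0.05 there were 13 members in the first and 13 in the second, or 29.5% each, against 4.32% and 8.67% of all genes. The groups did not overlap for 15 and 13 of the 44, against 11.6% and 15.7% of all genes. DESeq2 called 1 member, MCM10, in the first comparison, and 0.537% of all genes. The summed level was 2342 to 2462 CPM in TR erdafitinib and 2104 to 2378 CPM in TR combination, above all 6 TR libraries without the drug.

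**Figure D3:**
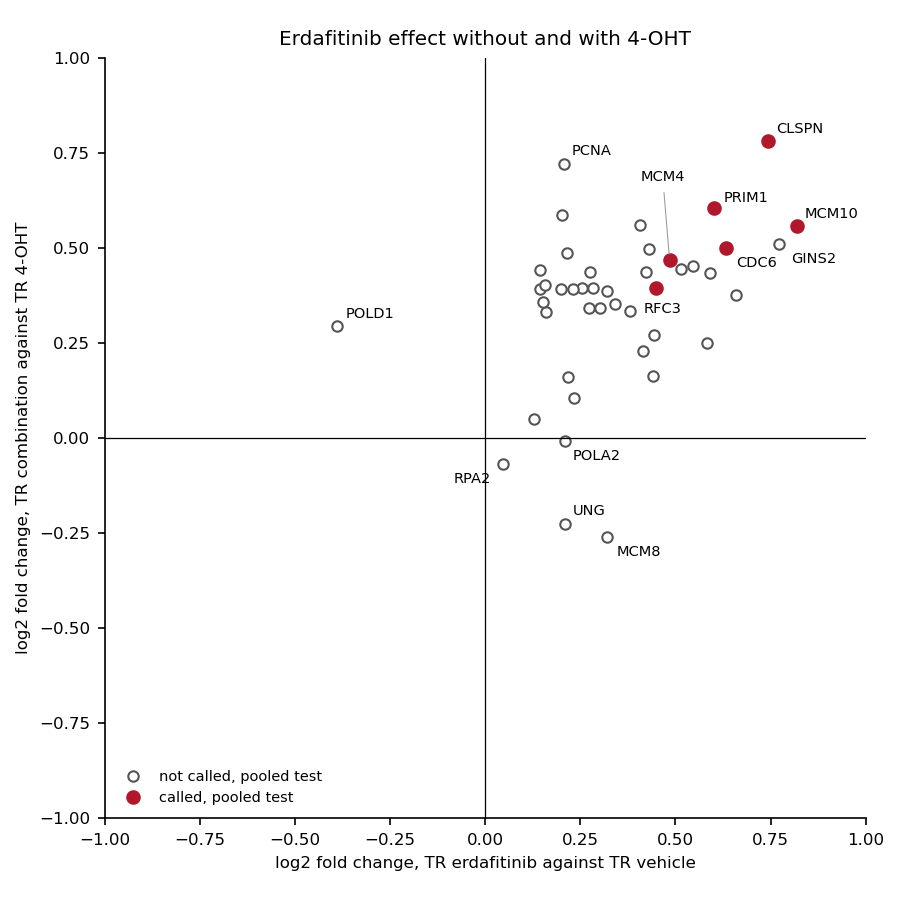
Log2 fold change of each of the 44 genes with erdafitinib alone (TR erdafitinib against TR vehicle, horizontal axis) and with erdafitinib added to 4-OHT (TR combination against TR 4-OHT, vertical axis); filled points were called in the pooled test. The 2 comparisons share no library. Most points lie above 0 on both axes, CLSPN and MCM10 are farthest out, POLD1 is the only gene below 0 on the horizontal axis, and MCM8, UNG, RPA2 and POLA2 are below 0 on the vertical axis.

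When both settings were averaged, 6 libraries with erdafitinib against 6 without, 6 of 44 genes rose and 0 fell, with 0.777% of all genes called higher and 0.938% lower. At an unadjusted p under 0.05 there were 24 members (54.5%), against 11.7% of all genes, and 41 of 44 estimates were above 0, against 47.9% of all genes, with a median of 0.35 against -0.01. The 6 called genes came from 5 roles: licensing (CDC6, MCM4), helicase activation (MCM10), priming (PRIM1), clamp loading (RFC3) and checkpoint signalling (CLSPN). All 6 were already above PAR vehicle in the untreated resistant cells except PRIM1, which did not pass there.

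MCM10 stood at 46.4, 43.9 and 36.9 CPM in TR vehicle and 40.3, 48.7 and 46.6 CPM in TR 4-OHT, and at 65.0, 76.8 and 82.5 CPM in TR erdafitinib and 85.0, 60.9 and 53.5 CPM in TR combination. The rise was 0.69 (SE 0.13, edgeR adjusted p = 0.0127), and no library with the drug was as low as any without it. CLSPN (gene at chr1:35720218-35769978) stood at 27.2, 20.4 and 17.9 CPM and 18.9, 21.4 and 22.0 CPM without erdafitinib, and at 30.8, 36.4 and 42.3 CPM and 49.0, 29.3 and 28.5 CPM with it. This was the largest pooled rise of the 44, at 0.76 (SE 0.16, edgeR adjusted p = 0.0290), and the 6 libraries with the drug were again all above the 6 without. CDC6 (gene at chr17:40287879-40304657) stood at 38.4, 37.5 and 30.7 CPM and 30.8, 43.6 and 37.9 CPM without, and at 51.3, 54.3 and 59.5 CPM and 58.8, 56 and 43.5 CPM with the drug. It rose by 0.57 (SE 0.12, edgeR adjusted p = 0.0258), with TR combination 3 just under TR 4-OHT 2.

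PRIM1, the catalytic subunit of primase (gene at chr12:56731296-56752374), stood at 38.6, 32.6 and 28.0 CPM and 29.8, 30.5 and 38.4 CPM without erdafitinib, and at 43.3, 52.3 and 54.8 CPM and 53.9, 54.7 and 41.6 CPM with it. It rose by 0.60 (SE 0.14, edgeR adjusted p = 0.0404). Among the neighbours that share exon bases with PRIM1 is NACA. RFC3 (gene at chr13:33818069-33966558) stood at 43.1, 37.9 and 38.1 CPM and 40.2, 39.5 and 36.0 CPM without, and at 55.3, 55.0 and 52.4 CPM and 47.3, 55.8 and 49.0 CPM with the drug, a rise of 0.42 (SE 0.09, edgeR adjusted p = 0.0304). MCM4 stood at 165, 204 and 163 CPM and 171, 171 and 180 CPM without, and at 259, 230 and 255 CPM and 256, 246 and 221 CPM with it, a rise of 0.48 (SE 0.10, edgeR adjusted p = 0.0303). For PRIM1, RFC3 and MCM4 every library with erdafitinib was above every library without it.

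**Figure D4:**
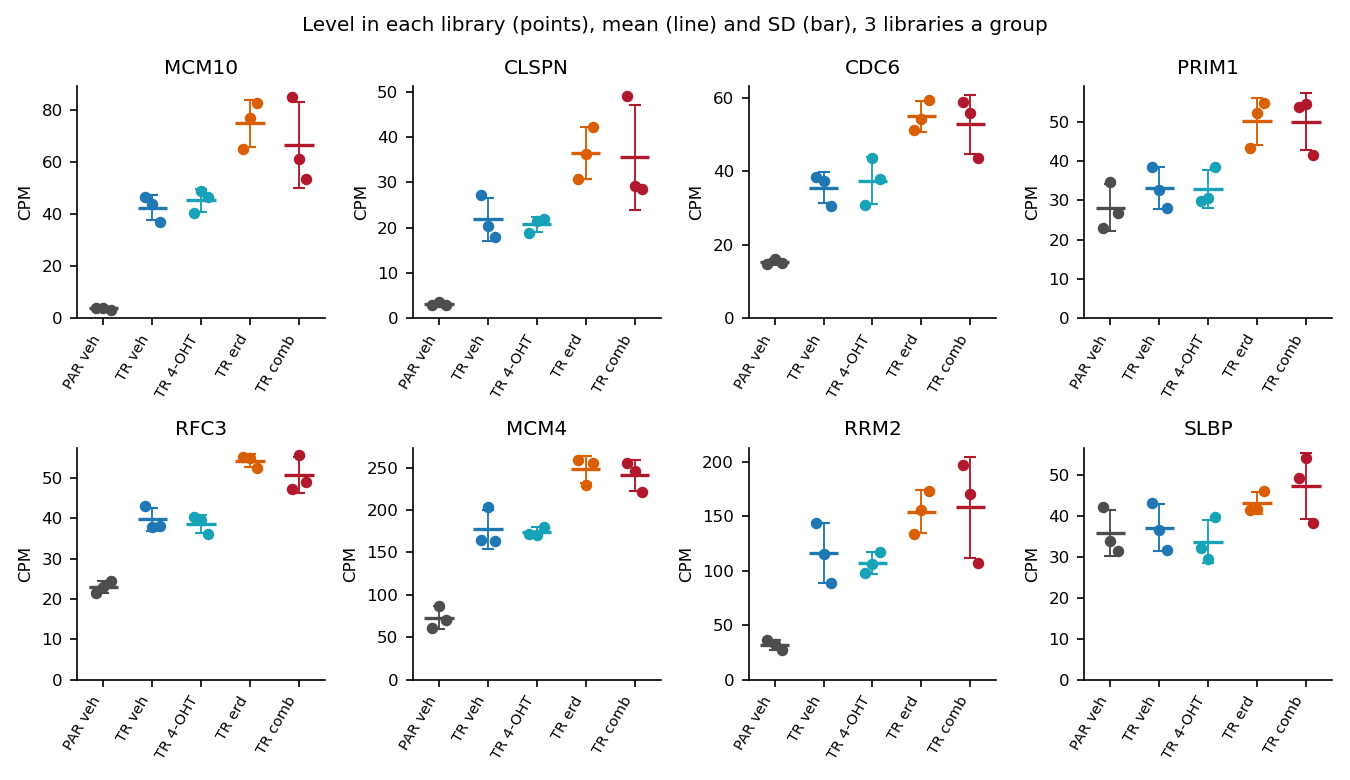
CPM in each library (points) with the mean (line) and SD (bar) of the 3 libraries of a group, for the 6 genes called in the pooled erdafitinib test and for RRM2 and SLBP, each on its own linear axis from 0. MCM10, CLSPN, CDC6, RFC3, MCM4 and RRM2 step up from PAR to TR vehicle, TR 4-OHT stays near TR vehicle, and the 6 called genes step up again with erdafitinib.

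The groups with and without erdafitinib did not overlap for 8 of 44 members (the called genes but CDC6, with ORC1, GINS2 and RFC5), against 3.38% of all genes tested. ORC1 stood at 6.08, 7.70, 6.08, 5.95, 6.78 and 6.50 CPM without and at 9.67, 10.3, 8.37, 8.74, 8.85 and 8.52 CPM with the drug, and did not pass (0.48, edgeR adjusted p = 0.202). GINS2 had the third largest estimate (0.64, SE 0.17, edgeR adjusted p = 0.0915). In the other roles the smallest p belonged to FEN1 (0.46, edgeR adjusted p = 0.359), TYMS (0.36, edgeR adjusted p = 0.176) and SLBP (0.35, edgeR adjusted p = 0.263), none of which passed. Estimates for UNG (-0.01), RPA2 (-0.01) and POLD1 (-0.05) were at or just under 0. By role, the medians ranged from 0.26 for nucleotide supply to 0.42 for helicase activation, a narrow range beside the 0.24 to 1.68 seen between resistant and parental cells. POLA1, which had shown no rise in resistant cells, had an estimate of 0.50 here (SE 0.14, edgeR adjusted p = 0.115).

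Each of the 6 calls was lost when some single library was left out. Without TR vehicle 3, or without TR 4-OHT 1, 0 members were called. MCM10 was lost only in these 2 fits of 12 and its edgeR adjusted p reached 0.0515 there, with rises of 0.64 and 0.65. Of all genes 0.913% and 0.95% were called in these 2 fits, against 1.71% in the main fit. With a correction for GC content and length, or with the within-group axis as a covariate, 17 members were called in each, while the share of all genes called in either direction rose to 6.35% and 6.79%.

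The difference between the settings was tested as an interaction. No member was called by edgeR, 0 had an unadjusted p under 0.05, and DESeq2 called 0; of all genes, 0% were called and 0.827% had such a p. The median difference was 0.01, and MCM8 (-0.58, 95% interval -1.19 to 0.03) and PCNA (0.51, -0.15 to 1.18) were among the 3 members with the smallest p. TR combination against TR erdafitinib likewise called 0 members by edgeR (0% of all genes; 0 members and 0.642% of all genes with an unadjusted p under 0.05; 0 members by DESeq2), with a median of -0.08. TR combination against TR vehicle called 0 by edgeR (0.487% of all genes; 10 members and 6.27% of all genes with an unadjusted p under 0.05), with 42 of 44 above 0, against 45.7% of all genes, and a median of 0.23. The count above 0 was 33 without TR vehicle 1, and 36 to 44 without any other single library. Set against PAR vehicle, resistant cells on both drugs had 31 members higher and 0 lower (19.4% and 15.2% of all genes), with a median of 1.24. MCM10 was 4.19 above the parental level there and CLSPN 3.54.

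Other lists of the cell cycle were read for comparison, beside the 19.9% of all genes called higher and 16% called lower between the lines. Of 43 further replication genes tested, 16 rose and 2 fell in TR vehicle against PAR vehicle, with a median of 0.54. Examples were TICRR, which fires origins (1.41), and the maintenance methyltransferase DNMT1 (1.44), and the 2 that fell were POLE3 (-0.53) and RPA3 (-0.80), which lost their calls in 4 and 5 of 15 alternatives. Of 26 E2F and G1/S regulators 12 rose and 1 fell, among them cyclin E1 (CCNE1, 2.42) and E2F2 (2.27), against E2F5 (-0.87). Of 31 genes of fork protection and recombination 11 rose, such as EXO1 (1.62) and XRCC2 (1.90), and 3 fell (ATRIP, PALB2 and SMARCAL1). Of 31 genes of G2 and mitosis 9 rose, CDK1 (0.77) and BUB1B (0.91) among them, and 3 fell (CENPF, NEK2 and UBE2C), with a median of 0.38. These 3 calls were lost in 7, 10 and 3 of 15 alternatives, at edgeR adjusted p up to 0.183, 0.184 and 0.0858, and those of E2F5 and PALB2 in 1 of 15 each. In each list both the share called higher and the median were below those of the 44 genes.

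Of 6 inhibitors of cyclin-dependent kinases tested, 3 rose and 0 fell in TR vehicle against PAR vehicle, beside 19.9% and 16% of all genes. CDKN2B, which blocks CDK4 and CDK6, stood at 4.53, 4.13 and 6.11 CPM in PAR vehicle and at 56.3, 56.9 and 56.6 CPM in TR vehicle, a rise of 3.50 (SE 0.21, edgeR adjusted p = 1.77e-08) similar in size to that of MCM10. CDKN1A, which encodes p21, rose by 2.75 (SE 0.31, edgeR adjusted p = 1.10e-05). Under erdafitinib CDKN2B stood at 30.2, 29.5 and 28.0 CPM, and in the combination at 34.6, 35.1 and 22.6 CPM against 62.2, 66.8 and 54.6 CPM in TR 4-OHT. In the pooled test it fell by 0.97 (SE 0.13, edgeR adjusted p = 0.00138), and the 6 libraries with the drug were all below the 6 without.

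In the pooled erdafitinib test 38 of 43 further replication genes and 31 of 31 genes of G2 and mitosis were above 0, with medians of 0.23 and 0.35. Of all genes, 47.9% were above 0. No gene of either list was called, beside 0.777% of all genes called higher and 0.938% lower. EXO1, a nuclease of repair, was the 1 gene called in the fork protection list (0.68, SE 0.13, edgeR adjusted p = 0.0127; adjusted p = 0.0534 without TR vehicle 3 or without TR erdafitinib 2). Replication-dependent histones, whose mRNA lacks a poly(A) tail and is made in S phase, are a separate list. Of 35 tested, 4 rose and 2 fell in TR vehicle against PAR vehicle, beside 19.9% and 16% of all genes. The median of the list was 0.01. In the pooled erdafitinib test 0 were called, with a median of 0.03. H3C10 (2.52) and H2AC13 (2.43) rose and H1-3 (-2.25) fell between the lines, the last losing its call in 2 of 15 alternatives, without PAR vehicle 2 or without TR vehicle 3. The labels name a stranded kit and do not say whether RNA was selected by its poly(A) tail.

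**Figure D5:**
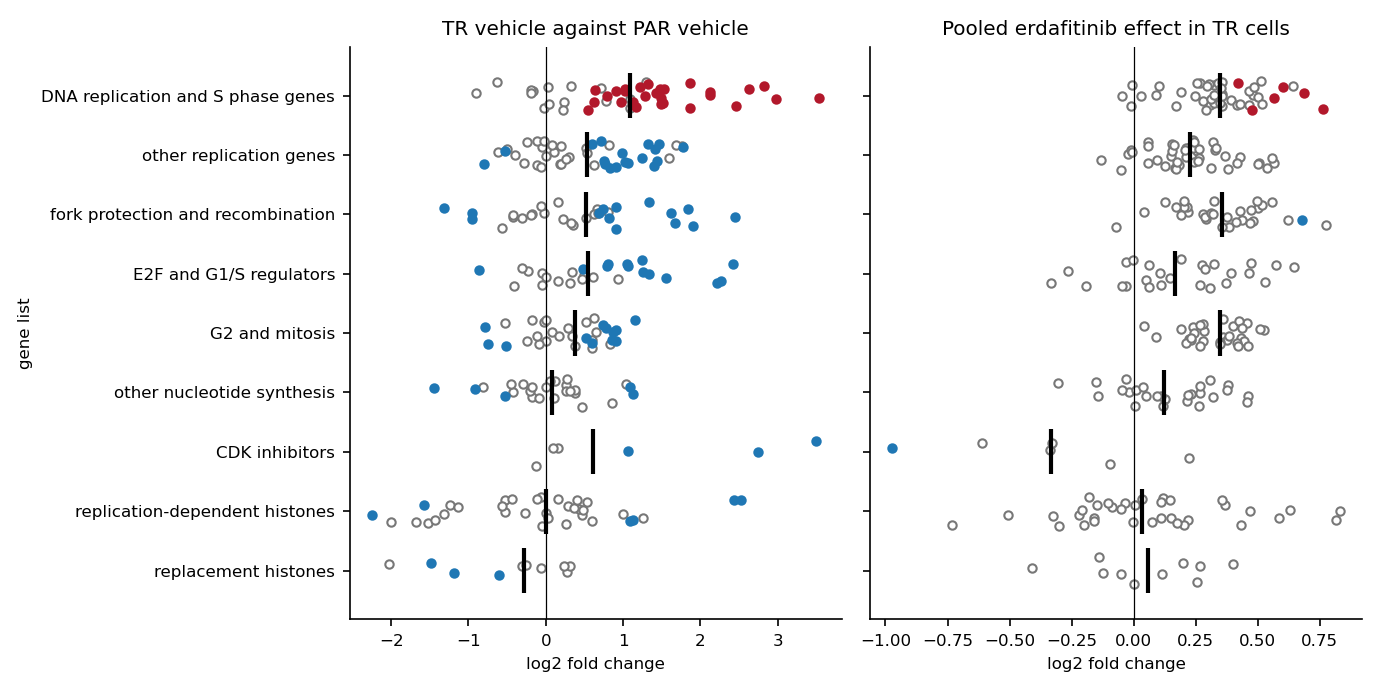
Log2 fold change of every tested gene of the 44 and of 8 other lists (points; filled where the edgeR adjusted p is under 0.05; vertical bars are list medians) in TR vehicle against PAR vehicle (left) and in the pooled erdafitinib test (right); the height of a point within its row has no meaning. The 44 genes have the highest median on the left (1.09), and on the right their median (0.35) is like those of fork protection (0.35) and of G2 and mitosis (0.35).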

How the data were processed

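Per the labels' protocols, total RNA (100 ng) from each culture went into a stranded kit and was sequenced as paired 150 bp reads. The aligner was HISAT2 2.1.0 and the build GRCh38 (per the submitters' processing notes). What the authors deposited is a raw count for each Ensembl 104 gene from featureCounts 2.0.1, run in paired and reverse-stranded mode, per the file headers; the processing notes give version 1.4.6-p1. Reads mapped to several places or genes were not counted, by the defaults of the command in the file headers. Trimming is not given in the sources used here.

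The members and all lists were chosen with earlier results of these data known. The tests were run in edgeR 4.0.16 (R 4.3.3): filterByExpr on the groups (16210 genes kept, 44454 left out), TMM scaling (factors 0.907 to 1.10), and 1 quasi-likelihood fit of all 15 libraries with a mean per group, no block and 10 residual degrees of freedom. The biological coefficient of variation was 30.8%. Each comparison used the quasi-likelihood F test, with Benjamini-Hochberg adjustment over all genes tested and a call at an adjusted p under 0.05. The pooled erdafitinib effect is the mean of its effects without and with 4-OHT. Standard errors are the absolute log2 fold change over the square root of F. Per-library values were given for the 2 members of each role with the smallest p in resistant against parental cells, the 1 with the smallest p in the pooled test, and every member called among resistant groups. Of each other list, the text names the 2 smallest p, the smallest in the pooled test and up to 4 calls against its direction. Values for a member that was not called are descriptive. The alternatives were DESeq2 1.42.0, its size factors in edgeR, no filter on low counts, a minimum CPM of 1 in 3 libraries, a fit restricted to the groups compared, the replicate number as a block, a correction for GC content (GENCODE 29) and gene length, a covariate for the first axis of within-group variation, omission of the 2 shallowest libraries (PAR vehicle 2 and TR 4-OHT 2), and omission of each library in turn. The fit was tested on simulated data. With 3 libraries against 3 an exact permutation test cannot go below p = 0.1 and was not used. In the histone list H2AC18 and H2AC19 matched no ID. Promoters came from RefSeq (GRCh38.p14), first listed start per symbol. Some genes of the other lists are not reported here.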

Additional observations from a re-analysis of the deposited data

How the results depend on the processing

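No estimate with a call changed sign under any alternative run. Between TR vehicle and PAR vehicle 28 members were called, 21 to 30 when single libraries were left out and 21 to 35 under the other settings, and 21 of the 28 kept their call in all 15 alternatives. Of all genes, 28.4% to 38.1% were called in either direction when single libraries were left out, and 18.1% to 51.9% under the other settings. The correction for GC content and length called 34 and the within-group axis as a covariate 35. The share of all genes called in either direction was 49.2% and 51.9% there, against 35.9% in the main fit. Both settings added calls for CDT1 and GINS3, whose main estimates were below 0 (-0.90 and -0.62). The count of 0 members that fell is that of the main fit. In TR 4-OHT against PAR vehicle CDT1 was added by both settings and by DESeq2. The 6 calls of the pooled erdafitinib test became 2 with no filter on low counts, 17 with the correction for GC content and length and 17 with the within-group axis as a covariate, and 0 to 8 when single libraries were left out. The shares of all genes called in these fits were 0.813%, 6.35%, 6.79% and 0.851% to 2.86%, against 1.71% in the main fit. None of the 6 kept its call in all 21 alternatives, and 39 to 44 of the 44 estimates stayed above 0. For TR erdafitinib against TR vehicle, 0 calls became 6 with the GC and length correction, 5 with the axis and 1 with DESeq2. Of all genes 0.771%, 0.925% and 0.537% were called in these fits, against 0.0925% in the main fit. For TR combination against TR 4-OHT they became 5 and 2, and against TR vehicle 4 and 6, with the correction and the axis. The shares of all genes called rose as well, from 0.642% to 2.59% and 2.7% against TR 4-OHT. Against TR vehicle they rose from 0.487% to 2.38% and 2.5%. The cause of these differences was not tested. Deviations of same-numbered libraries correlated at -0.80 to 0.75 for number 1, -0.35 to 0.24 for number 2 and -0.62 to 0.72 for number 3. Libraries of different numbers and groups correlated at -0.76 to 0.74. The ranges show no clear pairing by replicate number, and whether same-numbered libraries shared a batch was not tested. With the replicate number as a block, 28 members were called between TR vehicle and PAR vehicle and 2 in the pooled erdafitinib test (34.2% and 1.15% of all genes). Depth limits the members at a few CPM most, since 3 counts equalled 0.432 CPM on the uncorrected total of the shallowest library.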

Other observations

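All 4 supply genes among the members rose between the lines. Of 26 further genes of nucleotide synthesis tested, 2 were called higher and 3 lower in TR vehicle against PAR vehicle by edgeR, beside 19.9% and 16% of all genes, with a median log2 fold change of 0.08. MTHFD2, the mitochondrial folate enzyme, stood at 438, 472 and 387 CPM in PAR vehicle and at 179, 150 and 147 CPM in TR vehicle and fell by 1.45 (SE 0.13, edgeR adjusted p = 1.59e-06). RRM2B, the reductase subunit that serves cells outside S phase, rose by 1.10 (SE 0.20, edgeR adjusted p = 0.000738), so that all 3 reductase genes were higher in the resistant line.

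Replacement histones are a class made outside S phase as well as in it. Of 10 tested, 0 rose and 3 fell between TR vehicle and PAR vehicle by edgeR, beside 19.9% and 16% of all genes. The median of the list was -0.28. Of these 3, H3-3A lost its call in 8 of 15 alternatives (edgeR adjusted p up to 0.139). In the pooled erdafitinib test no gene of either list was called.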
